A study of Mus musculus with 16 samples.

Results

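The basement membrane genes described here are 9 genes of the sheet-like matrix under epithelia: the collagen IV chains Col4a1 and Col4a2, the laminin chains Lama1, Lama5, Lamb1 and Lamc1, the nidogens Nid1 and Nid2, and the matrix glycoprotein gene Sparc. Members were taken as every array probe that carries 1 of these gene symbols in the platform annotation. Of the 9 genes 8 had such a probe, Sparc had a second, so that 9 of the 25697 probes on the array are members. No probe carries the symbol Lama5, which was not analysed here. All 9 member probes were detected on all 16 arrays, so none entered or left the tests through the filter on dim probes.

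Mouse embryonic stem (ES) cells were grown on gelatin in Glasgow MEM with 15% serum and 1000 IU/ml of LIF, the cytokine that keeps them undifferentiated. There were 4 groups: wild-type CCE cells left untreated, CCE cells given 20 mM sodium chlorate for 24 h, CCE cells given 5 µM SU5402 for 24 h, and untreated Ndst1/2-/- cells. Chlorate inhibits sulfation, SU5402 inhibits FGF receptor kinases, and Ndst1/2-/- cells lack the N-deacetylase/N-sulfotransferases that start the sulfation of heparan sulfate. Each group had 3 cultures labelled as biological replicates, and the third was measured on 2 arrays that were averaged. How separately the cultures were grown is not stated, so p-values measure the spread between 12 cultures. How many lines or clones the knockout cells came from is not stated in the labels. A difference between lines cannot be told apart from the effect of the deletion. No probe carries the symbols Ndst1 or Ndst2 in the annotation used, so the deleted genes were not analysed here. RNA came from whole cultures, in which fewer cells of a type and less RNA per cell cannot be told apart.

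Between 12022 and 12821 probes were detected per array, and 13377 entered the tests. All 6 ES cell markers examined (Pou5f1, Sox2, Nanog, Zfp42, Esrrb and Utf1) were detected on every array. Mean intensity parted the arrays into 2 sets, at 412 to 454 and 369 to 400, that hold equal numbers of arrays of every group. Levels below are log2 intensities after background correction and quantile normalization, with SD over 3 cultures. Differences are log2 differences with moderated standard errors (SE) from limma, adjusted by Benjamini-Hochberg over all tested probes and called at an adjusted p under 0.05. Levels of different probes are not compared, because each probe has its own brightness.

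Basement membranes assemble from separate networks. Laminin is a cross-shaped trimer of an alpha, a beta and a gamma chain, and the products of Lama1, Lamb1 and Lamc1 form laminin-111, the laminin of the early mouse embryo. Collagen IV is a triple helix in which COL4A1 contributes more chains than COL4A2, nidogens bridge laminin and collagen IV, and SPARC binds collagen. In ES cell cultures these genes are best known as products of primitive and parietal endoderm, and laminin binds heparan sulfate chains at the cell surface.

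Col4a1 and Col4a2 lie head to head on chromosome 8, and the probes named for the other members map to genes on chromosomes 17 (Lama1), 12 (Lamb1), 1 (Lamc1), 13 (Nid1), 14 (Nid2) and 11 (Sparc). Promoter windows, from 250 bases before to 50 after the annotated start, were taken from RefSeq (build GRCm38.p6) for the 6 of 9 members that have one (Col4a1, Col4a2, Lama5, Lamb1, Nid1 and Sparc). The collagen IV pair is printed because its members moved together, with the 78 bases that both windows share in capitals. The Col4a1 window lies at chr8:11312777-11313076 on the minus strand and the Col4a2 window at chr8:11312555-11312854 on the plus strand.
Col4a1: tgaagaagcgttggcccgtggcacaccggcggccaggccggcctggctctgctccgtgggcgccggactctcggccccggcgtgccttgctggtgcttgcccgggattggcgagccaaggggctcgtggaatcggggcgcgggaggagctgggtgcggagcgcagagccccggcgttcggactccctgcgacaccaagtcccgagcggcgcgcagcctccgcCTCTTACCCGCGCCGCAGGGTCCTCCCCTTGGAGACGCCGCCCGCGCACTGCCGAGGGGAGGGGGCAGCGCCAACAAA
Col4a2: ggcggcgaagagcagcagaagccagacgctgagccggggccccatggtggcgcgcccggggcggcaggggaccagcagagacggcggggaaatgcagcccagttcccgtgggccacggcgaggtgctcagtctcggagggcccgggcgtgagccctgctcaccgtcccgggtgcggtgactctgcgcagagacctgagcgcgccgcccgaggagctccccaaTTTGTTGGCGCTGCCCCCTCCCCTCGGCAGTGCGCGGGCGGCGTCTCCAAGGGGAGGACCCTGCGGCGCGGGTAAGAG
The annotated starts are 21 bases apart, and that of Col4a1, on the minus strand, lies at the higher coordinate. The beginnings of the annotated transcripts thus overlap, with no gap between them. Of all 32851 windows, 10.8% overlap a window of another gene on the opposite strand. GC content is 74.0% for Col4a1 and 73.7% for Col4a2, against a median of 52.7% over all windows.

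Nid1 and Lamb1 are printed because they moved in opposite directions in Ndst1/2-/- cells. The Nid1 window lies at chr13:13437352-13437651 and the Lamb1 window at chr12:31265043-31265342, both on the plus strand. Capitals mark GGGCGG, the core of the GC box, and CCAAT, each read on either strand.
Nid1: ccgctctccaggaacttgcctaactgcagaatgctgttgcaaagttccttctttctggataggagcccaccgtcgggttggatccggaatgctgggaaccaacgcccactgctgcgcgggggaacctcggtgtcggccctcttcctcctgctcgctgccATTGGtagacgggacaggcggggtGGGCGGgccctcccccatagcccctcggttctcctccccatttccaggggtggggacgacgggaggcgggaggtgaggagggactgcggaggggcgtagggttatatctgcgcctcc
Lamb1: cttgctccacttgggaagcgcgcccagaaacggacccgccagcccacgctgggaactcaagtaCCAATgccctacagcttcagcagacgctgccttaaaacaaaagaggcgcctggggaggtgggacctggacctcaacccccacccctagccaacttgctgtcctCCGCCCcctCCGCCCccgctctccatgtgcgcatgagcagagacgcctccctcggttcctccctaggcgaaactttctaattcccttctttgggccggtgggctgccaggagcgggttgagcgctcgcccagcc
GGGCGG was found in 5 of the 6 member windows, Sparc being the exception, and in 35.7% of all windows. The only match of Col4a1 lies in the bases shared with Col4a2, so that site counts in both windows. GC content was 72.7% for Lama5, 64.7% for Nid1, 63.7% for Lamb1 and 55.3% for Sparc, against the median of 52.7%. Windows of like GC content were not compared. CCAAT was found in 4 of the 6 (Col4a1, Col4a2, Lamb1 and Nid1) and in 37.4% of all windows. The GATA element AGATAA, present in 11.2% of all windows, was in none of the 6. The TATA box, searched as TATAAA and present in 13.6% of all windows, was in none of them either. Each of the 4 motifs was counted by itself on both strands, so matches of different motifs may share bases.

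Most of the basement membrane probes were lowest in untreated wild-type cells (7 of 9) and highest in Ndst1/2-/- cells (7 of 9). With chlorate 8 of 9 probes were called higher and 0 lower, where 14.2% of all tested probes were called higher and 28.4% were called in either direction. With SU5402 7 were called higher and 0 lower, where 11.9% of all tested probes were called higher and 23.5% in either direction. In Ndst1/2-/- cells 8 were called higher and 1, Lamb1, lower, where 62.7% of all tested probes were called, 30.4% higher and 32.2% lower. The median change over the 9 probes was 0.41 with chlorate, 0.42 with SU5402 and 0.75 in Ndst1/2-/- cells, and the median over all tested probes was -0.0072, -0.0054 and 0.00057. These 3 comparisons share the untreated cultures. The 3 cultures of a group did not overlap the untreated ones for 8 probes with chlorate, 7 with SU5402 and 9 in Ndst1/2-/- cells, and over all tested probes this held for 41.9%, 38.6% and 67%. A limma F-test over the 4 groups called 9 of 9 probes, against 69% of all those tested (adjusted p 4.45e-09 for Lamc1 to 0.000121 for Lamb1).

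**Figure D1:**
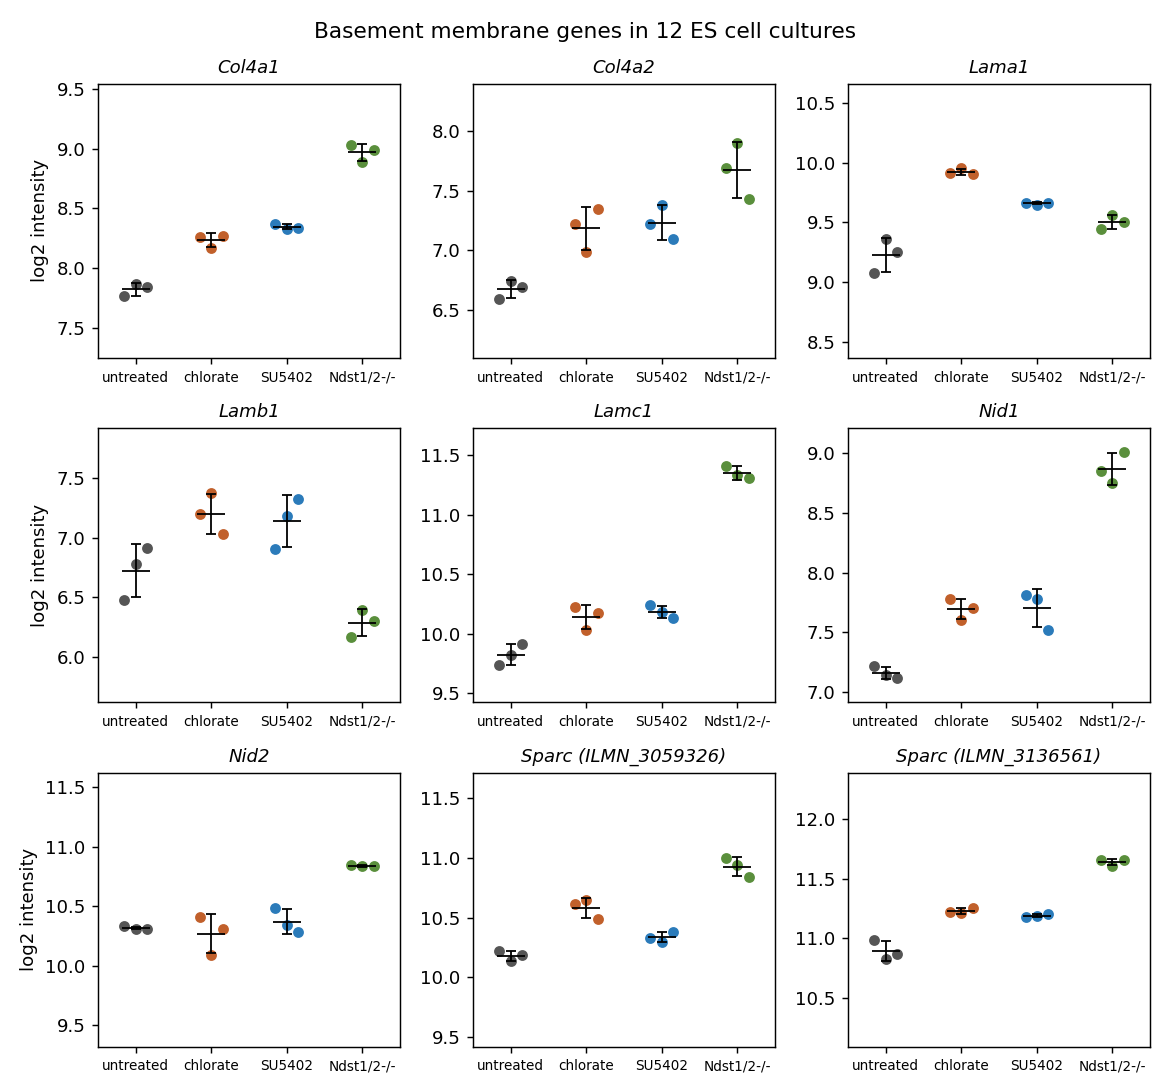
Log2 intensity of the 9 basement membrane probes in 12 cultures of ES cells. Points are cultures, horizontal bars are group means and error bars are SD over 3 cultures; every panel spans the same number of log2 units. Untreated cultures sit lowest for 7 probes, and Ndst1/2-/- cultures sit highest for 7 probes and lowest for Lamb1.

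Col4a1, the more abundant chain of collagen IV, stood in 3 steps. In the 3 untreated cultures its level was 7.76, 7.86 and 7.84, with chlorate 8.26, 8.17 and 8.27, with SU5402 8.37, 8.33 and 8.34, and in Ndst1/2-/- cells 9.03, 8.89 and 8.99. No culture of the untreated group or of the Ndst1/2-/- group overlapped any other group. Against untreated cells Col4a1 rose 1.33-fold with chlorate (0.41 ± 0.06 SE, adjusted p = 0.000197), 1.44-fold with SU5402 (0.52 ± 0.06, adjusted p = 4.03e-05) and 2.22-fold in Ndst1/2-/- cells (1.15 ± 0.06, adjusted p = 3.36e-09). The Ndst1/2-/- level was also above that with chlorate (0.74 ± 0.06, adjusted p = 2.65e-07) and with SU5402 (0.63 ± 0.06, adjusted p = 1.26e-06).

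Col4a2, whose product joins that of Col4a1 in the same triple helix, followed the same order with a wider spread. Its level was 6.59, 6.74 and 6.69 in untreated cells and 7.22, 6.99 and 7.34 with chlorate. It was 7.22, 7.38 and 7.09 with SU5402, and 7.69, 7.90 and 7.43 in Ndst1/2-/- cells. Untreated cultures lay below all others, and the chlorate and SU5402 cultures overlapped each other. Col4a2 rose 1.42-fold with chlorate (0.51 ± 0.12 SE, adjusted p = 0.00721), 1.47-fold with SU5402 (0.55 ± 0.12, adjusted p = 0.00524) and 2.00-fold in Ndst1/2-/- cells (1.00 ± 0.12, adjusted p = 1.07e-05). It was higher in Ndst1/2-/- cells than with chlorate (0.49 ± 0.12, adjusted p = 0.00356) or SU5402 (0.44 ± 0.12, adjusted p = 0.00679). In the dimmer set of arrays alone, with 2 arrays a group, the inhibitor calls were lost (0.48 in both, adjusted p = 0.113 and 0.13, the highest over 23 alternatives that started at 0.00193 and 0.00112).

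The difference between the 2 collagen IV probes was taken within each culture. Col4a1 minus Col4a2 was 1.17, 1.12 and 1.15 log2 units in the untreated cultures, 1.04, 1.18 and 0.93 with chlorate, 1.15, 0.95 and 1.24 with SU5402, and 1.34, 0.99 and 1.56 in Ndst1/2-/- cells. Every group overlapped the untreated cultures. The mean difference moved by -0.10, -0.03 and 0.15, with exact permutation p of 0.4, 0.8 and 0.4 (two-sided; adjusted over 15 such tests 0.545, 0.857 and 0.545), and with 3 cultures against 3 the smallest p is 0.1. The Ndst1/2-/- cultures had the widest spread of this difference (SD 0.29, against 0.02 in untreated cells), and on the duplicate arrays of the third culture Col4a2 differed by 0.08 to 0.33 against 0.01 to 0.16 for Col4a1.

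**Figure D2:**
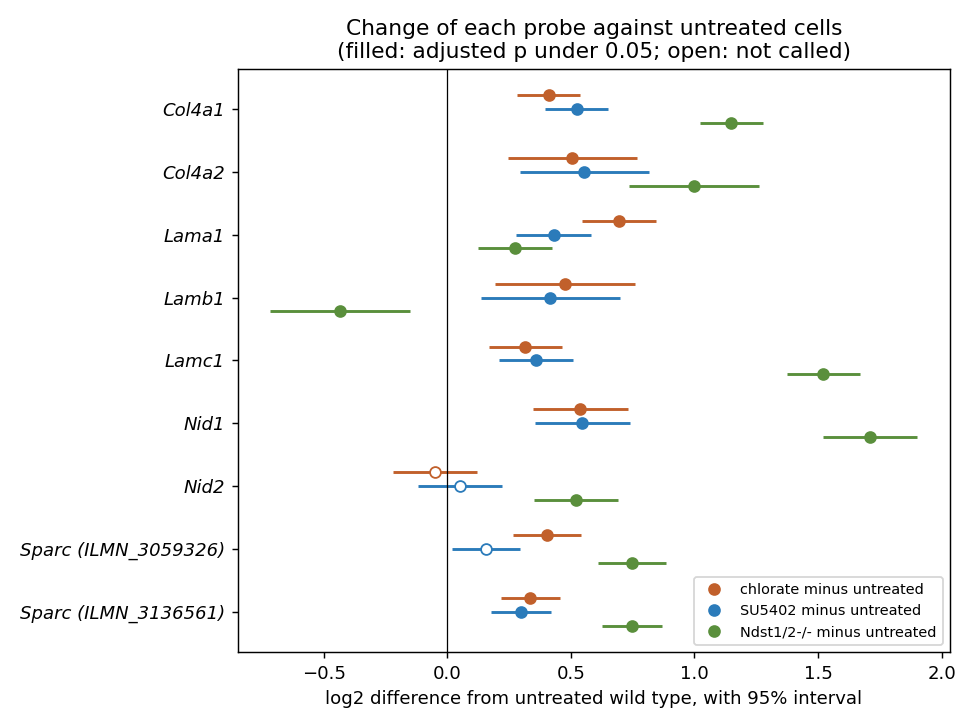
Log2 difference of each basement membrane probe from untreated wild-type cells with its 95% interval, for chlorate, SU5402 and Ndst1/2-/- cells. Filled points passed an adjusted p of 0.05. Lamc1, Nid1 and Col4a1 lie farthest right in Ndst1/2-/- cells (1.52, 1.71 and 1.15), Lamb1 lies left of 0 there, and Nid2 lies near 0 with both inhibitors (-0.05 and 0.05).

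The laminin-111 chains did not move alike. Lama1, the alpha chain that carries the main heparan sulfate binding site of laminin-111, was highest with chlorate. Its level was 9.07, 9.36 and 9.25 in untreated cells, 9.91, 9.95 and 9.90 with chlorate, 9.67, 9.65 and 9.66 with SU5402, and 9.45, 9.56 and 9.50 in Ndst1/2-/- cells. The 4 groups did not overlap, and the Ndst1/2-/- cultures lay nearest to the untreated ones. Lama1 rose 1.62-fold with chlorate (0.69 ± 0.07 SE, adjusted p = 1.08e-05), 1.35-fold with SU5402 (0.43 ± 0.07, adjusted p = 0.000706) and 1.21-fold in Ndst1/2-/- cells (0.27 ± 0.07, adjusted p = 0.00391). It was lower in Ndst1/2-/- cells than with chlorate (-0.42 ± 0.07, adjusted p = 0.000195). The Ndst1/2-/- and SU5402 cultures differed by -0.16 (95% interval -0.31 to -0.01, adjusted p = 0.0715), which did not pass.

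Lamb1, the beta chain, was called higher with the inhibitors and lower in Ndst1/2-/- cells. Its level was 6.48, 6.78 and 6.91 in untreated cells, 7.20, 7.37 and 7.03 with chlorate, 6.91, 7.18 and 7.33 with SU5402, and 6.17, 6.39 and 6.30 in Ndst1/2-/- cells. The lowest SU5402 culture lay level with the highest untreated one, chlorate and SU5402 overlapped, and the other pairs of groups were separate. Lamb1 rose 1.39-fold with chlorate (0.48 ± 0.13 SE, adjusted p = 0.0154) and 1.34-fold with SU5402 (0.42 ± 0.13, adjusted p = 0.035), and was 1.35-fold lower in Ndst1/2-/- cells (-0.43 ± 0.13, adjusted p = 0.0108). Direct comparison put it lower in Ndst1/2-/- cells than with chlorate (-0.91 ± 0.13, adjusted p = 5.62e-05) and SU5402 (-0.85 ± 0.13, adjusted p = 0.000101).

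The calls of Lamb1 against untreated cells depended on single cultures and on the processing, and its direction did not. With SU5402 the call was kept under 14 of 23 alternatives (adjusted p 0.0076 to 0.135). It was lost without untreated replicate 1 (0.30, adjusted p = 0.135) or 2 (0.44, adjusted p = 0.0608) and without SU5402 replicate 2 (0.39, adjusted p = 0.0948) or 3 (0.32, adjusted p = 0.133). It was also lost with no filter on dim probes (0.42, adjusted p = 0.0688), with the authors' processed values (0.51, adjusted p = 0.0653), with only the compared groups in the fit (0.42, adjusted p = 0.0649), and in the brighter (0.44, adjusted p = 0.106) or dimmer (0.39, adjusted p = 0.0999) set of arrays alone. With chlorate it was kept under 19 of 23 (adjusted p 0.00363 to 0.135), and lost without untreated replicate 1 (0.36, adjusted p = 0.0651) or chlorate replicate 2 (0.39, adjusted p = 0.0658) and in the brighter (0.44, adjusted p = 0.087) or dimmer (0.33, adjusted p = 0.135) set of arrays alone. The lower level in Ndst1/2-/- cells was kept under 21 of 23 (adjusted p 0.001 to 0.0679), and lost without untreated replicate 3 (-0.34, adjusted p = 0.0529) and in the brighter set alone (-0.38, adjusted p = 0.0679). The lower level of Lamb1 in Ndst1/2-/- cells than with either inhibitor was called under 23 of 23 alternatives.

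Lamc1, the gamma chain shared by most laminins, showed the largest laminin change. Its level was 9.74, 9.82 and 9.92 in untreated cells, 10.22, 10.03 and 10.17 with chlorate, 10.24, 10.18 and 10.13 with SU5402, and 11.41, 11.33 and 11.30 in Ndst1/2-/- cells. The Ndst1/2-/- cultures lay over 1 log2 unit above every wild-type culture, and those with either inhibitor lay above the untreated ones. Lamc1 rose 2.87-fold in Ndst1/2-/- cells (1.52 ± 0.07 SE, adjusted p = 1.1e-09), 1.25-fold with chlorate (0.32 ± 0.07, adjusted p = 0.00407) and 1.28-fold with SU5402 (0.36 ± 0.07, adjusted p = 0.00237). The Ndst1/2-/- level exceeded that with chlorate by 1.21 ± 0.07 (adjusted p = 1.25e-08) and that with SU5402 by 1.16 ± 0.07 (adjusted p = 1.85e-08). Where arrays were scaled to a common median instead, the chlorate difference was 0.21 and lost its call (adjusted p = 0.114, range over 23 alternatives 0.000948 to 0.177). In the dimmer set of arrays alone neither inhibitor call held (0.21, adjusted p = 0.177, and 0.25, adjusted p = 0.136, the latter over alternatives from 0.00038).

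Taking the difference between chains within each culture set the 3 chains side by side. Lamc1 minus Lamb1 was 1.96 log2 units higher in Ndst1/2-/- cells than in untreated cells (cultures 1.83 to 2.14 above the untreated mean, untreated cultures -0.10 to 0.16). Lamc1 minus Lama1 was 1.25 higher (1.17 to 1.37, untreated -0.13 to 0.07) and Lama1 minus Lamb1 0.71 higher (0.66 to 0.78, untreated -0.16 to 0.09). In all 3 differences the Ndst1/2-/- cultures lay apart from the untreated ones, with an exact permutation p of 0.1 (two-sided, adjusted p = 0.214), the smallest that 3 cultures against 3 allow. With chlorate Lamc1 minus Lama1 fell by 0.38 (-0.52 to -0.29), again without overlap and at the same p, while Lamc1 minus Lamb1 (-0.16) and Lama1 minus Lamb1 (0.22) overlapped the untreated cultures. With SU5402 all 3 differences overlapped the untreated cultures (-0.06, -0.07 and 0.01).

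**Figure D3:**
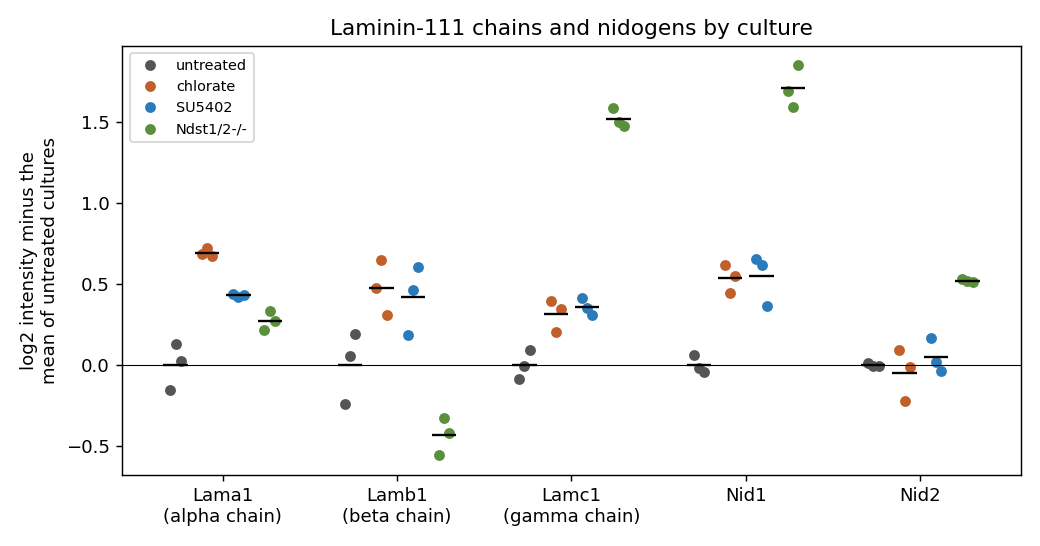
Laminin-111 chains and nidogens in each culture, as log2 intensity minus the mean of the untreated cultures of the same probe. Points are cultures and bars are group means. In Ndst1/2-/- cells the gamma chain Lamc1 lies at 1.52 and Nid1 at 1.71, the alpha chain Lama1 at 0.27 and the beta chain Lamb1 at -0.43.

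The nidogens differed from each other in both size and pattern. Nid1, which binds the gamma chain encoded by Lamc1, had the largest change of the 9 probes. Its level was 7.22, 7.14 and 7.12 in untreated cells, 7.78, 7.60 and 7.71 with chlorate, 7.81, 7.78 and 7.52 with SU5402, and 8.85, 8.75 and 9.01 in Ndst1/2-/- cells. Untreated cultures were lowest and Ndst1/2-/- cultures highest with no overlap, and the inhibitor groups overlapped each other. Nid1 rose 1.45-fold with chlorate (0.54 ± 0.09 SE, adjusted p = 0.000617), 1.46-fold with SU5402 (0.55 ± 0.09, adjusted p = 0.000722) and 3.27-fold in Ndst1/2-/- cells (1.71 ± 0.09, adjusted p = 4e-09). Its level in Ndst1/2-/- cells was 2.25-fold that with chlorate (1.17 ± 0.09, adjusted p = 1.78e-07) and 2.24-fold that with SU5402 (1.16 ± 0.09, adjusted p = 1.93e-07).

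Nid2, the second nidogen, was called in Ndst1/2-/- cells and with neither inhibitor. Its level was 10.33, 10.31 and 10.31 in untreated cells, 10.41, 10.09 and 10.31 with chlorate, 10.48, 10.34 and 10.28 with SU5402, and 10.85, 10.84 and 10.83 in Ndst1/2-/- cells. The 9 wild-type cultures overlapped, and the Ndst1/2-/- cultures lay above all of them. The difference from untreated cells was -0.05 with chlorate (95% interval -0.22 to 0.12, adjusted p = 0.69) and 0.05 with SU5402 (-0.12 to 0.22, adjusted p = 0.695). Nid2 rose 1.44-fold in Ndst1/2-/- cells (0.52 ± 0.08 SE, adjusted p = 7.45e-05), and it stood above chlorate (0.57 ± 0.08, adjusted p = 4.12e-05) and SU5402 (0.47 ± 0.08, adjusted p = 0.000206) by similar amounts.

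Nid1 minus Nid2 within a culture moved by 0.59 with chlorate (0.53 to 0.67 above the untreated mean), 0.50 with SU5402 (0.40 to 0.60) and 1.19 in Ndst1/2-/- cells (1.07 to 1.34), where the untreated cultures spanned -0.04 to 0.05. Every treated or knockout culture lay outside that span. The exact permutation p was 0.1 in each of the 3 (two-sided, adjusted p = 0.214), which is the smallest possible.

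Sparc, a secreted glycoprotein that binds collagen IV and modulates its assembly, is read by 2 probes. The brighter, ILMN_3136561, was at 10.99, 10.82 and 10.87 in untreated cells, 11.22, 11.21 and 11.26 with chlorate, 11.18, 11.19 and 11.20 with SU5402, and 11.66, 11.61 and 11.66 in Ndst1/2-/- cells. All 4 groups were separate, with chlorate and SU5402 less than 0.1 log2 units apart. This probe rose 1.26-fold with chlorate (0.34 ± 0.06 SE, adjusted p = 0.000663), 1.23-fold with SU5402 (0.30 ± 0.06, adjusted p = 0.00209) and 1.68-fold in Ndst1/2-/- cells (0.75 ± 0.06, adjusted p = 1.27e-07). Scaled to a common median, both inhibitor calls of this probe were lost (0.20, adjusted p = 0.104, and 0.21, adjusted p = 0.106), over alternatives that gave adjusted p of 9.07e-05 to 0.104 and 0.000393 to 0.106.

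The second Sparc probe, ILMN_3059326, gave the same fold in Ndst1/2-/- cells and missed the threshold with SU5402. It was at 10.22, 10.14 and 10.18 in untreated cells, 10.61, 10.65 and 10.49 with chlorate, 10.33, 10.29 and 10.38 with SU5402, and 11.00, 10.94 and 10.84 in Ndst1/2-/- cells. It rose 1.32-fold with chlorate (0.40 ± 0.06 SE, adjusted p = 0.00041) and 1.68-fold in Ndst1/2-/- cells (0.75 ± 0.06, adjusted p = 3.88e-07). With SU5402 its difference was 0.16 (95% interval 0.02 to 0.29, adjusted p = 0.092), not called, although the SU5402 cultures lay above the untreated ones, and it was called under 1 of 23 alternatives (adjusted p 0.0482 to 0.577). Ndst1/2-/- cells stood above chlorate and SU5402 at this probe (0.34, adjusted p = 0.000445, and 0.59, adjusted p = 4.39e-06) and at the brighter one (0.41, adjusted p = 3.78e-05, and 0.45, adjusted p = 1.74e-05).

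A direct comparison of SU5402 with chlorate called 0 of the 9 probes in limma, where 2.54% of all tested probes were called, 1.04% higher and 1.5% lower, and 2 members had an unadjusted p under 0.05. These 2 were Lama1, lower with SU5402 by -0.26 (95% interval -0.41 to -0.11, adjusted p = 0.0696), and the second Sparc probe (-0.25, -0.38 to -0.11, adjusted p = 0.0618). Neither passed. The 2 groups did not overlap for these probes, for Col4a1 and for the brighter Sparc probe, 4 of 9, where 22.1% of all tested probes did not overlap. The remaining 7 differences lay between -0.06 and 0.11, and the widest interval was that of Lamb1 (-0.34 to 0.22). Leaving out untreated replicate 1 or 2 changes only the pooled spread here, and the Lama1 difference was then called (adjusted p = 0.0294 and 0.0491, range over alternatives 0.0136 to 0.373, called under 6 of 23). The second Sparc probe was called under 2 of 23 (0.0297 to 0.461).

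Ndst1/2-/- cells differed from both inhibitor groups at nearly every probe. Against chlorate 7 probes were higher and 2 lower, Lama1 and Lamb1, where 58.3% of all tested probes were called, 29% higher and 29.3% lower. Against SU5402 7 were higher and 1, Lamb1, lower, where 57.9% were called, 28.4% higher and 29.5% lower. All 9 probes were free of overlap in both comparisons, as were 64% and 63.5% of all tested probes. The median over the 9 probes was 0.49 against chlorate and 0.47 against SU5402, and over all tested probes 0.0090 and 0.011. Leaving out untreated replicate 1 or 2 brought the Lama1 difference from SU5402 past the threshold (adjusted p = 0.0289 and 0.0467, range over alternatives 0.0199 to 0.462).

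Ordered by level, Col4a1, Col4a2, Lamc1 and Nid1 ran from Ndst1/2-/- cells through SU5402 and chlorate to untreated cells, and only SU5402 and chlorate did not differ by the test. Both Sparc probes ran from Ndst1/2-/- cells through chlorate and SU5402 to untreated cells, and for ILMN_3059326 neither chlorate and SU5402 nor SU5402 and untreated cells differed. For Lama1 the order was chlorate, SU5402, Ndst1/2-/- and untreated, with only the last step called. For Lamb1 it was chlorate, SU5402, untreated and Ndst1/2-/-, with all steps called but the first. For Nid2 the 3 wild-type groups were not separated. The range of group means was 1.71 for Nid1, 1.52 for Lamc1, 1.15 for Col4a1, 1.00 for Col4a2 and 0.91 for Lamb1, and 0.57 to 0.75 for the others, against a median of 0.40 over all tested probes.

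Likeness of 2 profiles was measured as the root mean square difference over the 12 cultures after centring each probe on its own mean. Among the members the closest were the 2 Sparc probes (0.10), Lamc1 and Nid1 (0.13), Nid2 and the brighter Sparc probe (0.16), Col4a1 and the brighter Sparc probe (0.17) and Col4a1 and Col4a2 (0.17). Many other probes were nearer than these members. By nearness among tested probes, Nid1 ranked 31 for Lamc1, and the brighter Sparc probe ranked 1245 for Nid2. For Col4a1 the brighter Sparc probe ranked 251 and Col4a2 ranked 264. The least alike were Lamb1 and Nid1 (0.93) and Lamb1 and Lamc1 (0.90). Of 9099 other genes, those nearest to Nid1 were Ildr1 (0.11), Wars2 (0.12) and Ctdsp2 (0.12), and those nearest to Lamc1 were Htra1 (0.06), Eps15l1 (0.09) and Usp13 (0.09). Those nearest to Col4a1 were Rab4a (0.06), Plpp1 (0.07) and Esrrb (0.07), and those nearest to Col4a2 were Dusp14 (0.11), Cadm1 (0.13) and Wwp2 (0.13). The median over all genes was 0.65 for Nid1, 0.60 for Lamc1, 0.44 for Col4a1 and 0.42 for Col4a2.

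Other matrix genes were counted from lists, each gene by its brightest tested probe, beside the shares of all probes given above. Among laminin and collagen IV chains outside the members, 9 were on the array and 2 were tested. Lamb2, another laminin beta chain, rose 2.29-fold in Ndst1/2-/- cells (1.20 ± 0.10 SE, adjusted p = 2.47e-07), and stood at 0.00 with chlorate and -0.13 with SU5402 (adjusted p = 0.982 and 0.353). Lamb2 and Lamb1 thus moved in opposite directions in Ndst1/2-/- cells. Lamb3 was not called (0.21, 0.12 and 0.15 in the 3 comparisons). Among 9 tested components of the basement membrane from other families, 4 rose and 0 fell with chlorate, 3 and 0 with SU5402, and 5 and 1 in Ndst1/2-/- cells (medians 0.11, 0.13 and 0.33).

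Among these, the largest changes in Ndst1/2-/- cells were in Tgfbi, a matrix protein induced by TGF-beta (2.44 ± 0.07 SE), Hspg2, the core protein of perlecan (1.31 ± 0.07), Agrn, the core protein of agrin (0.94 ± 0.06), and Fbln1, fibulin 1 (0.71 ± 0.08). Perlecan and agrin carry heparan sulfate chains in the basement membrane. Hspg2 also rose with chlorate (0.43) and SU5402 (0.50), and Tgfbi with chlorate (0.48) and not with SU5402 (0.13, adjusted p = 0.208).

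**Figure D4:**
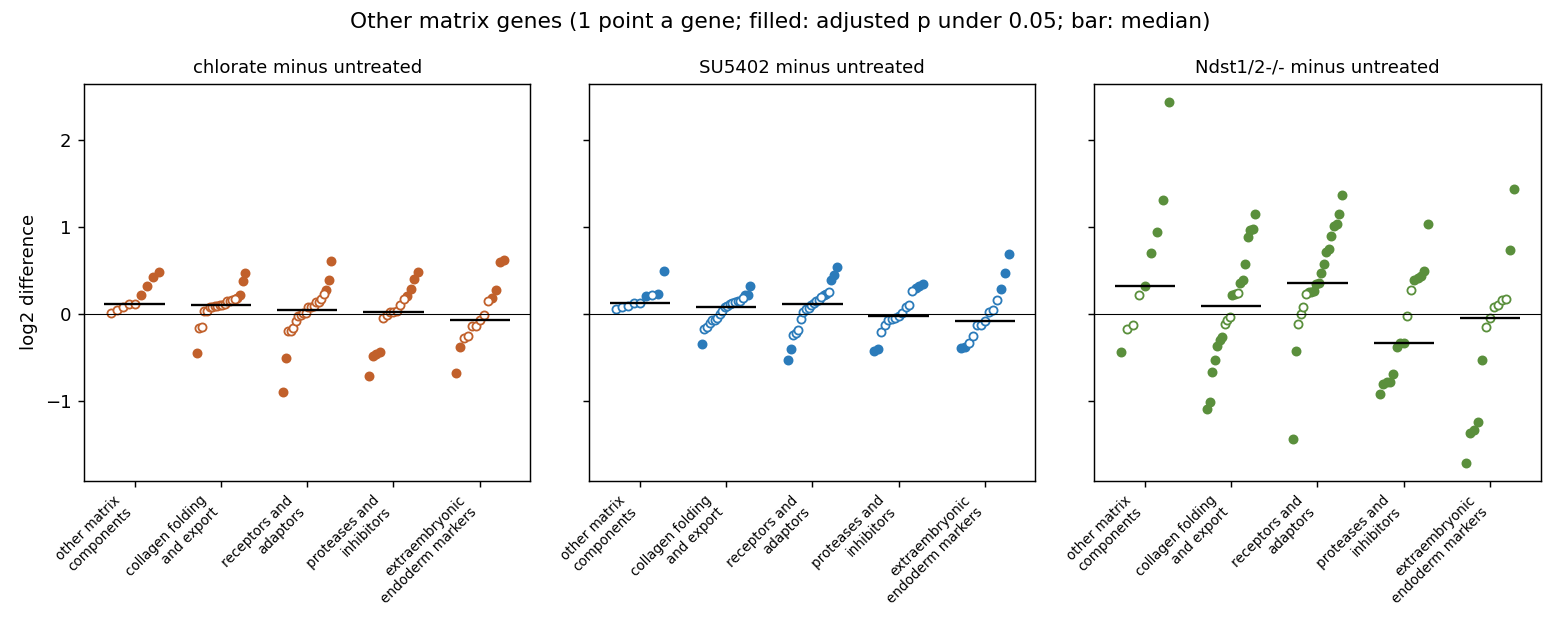
Log2 difference from untreated cells of other matrix genes and of extraembryonic endoderm markers, by list, with 1 point for each gene. Filled points passed an adjusted p of 0.05 and bars are list medians; genes undetected in 1 group stand at their fitted value. In Ndst1/2-/- cells the median of the receptor list lies at 0.35 and that of the protease list at -0.33.

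The enzymes and chaperones that fold, crosslink and export collagen were mixed. Of 20 tested, 4 rose and 1 fell with chlorate, 3 rose and 1 fell with SU5402, and 9 rose and 7 fell in Ndst1/2-/- cells (medians 0.11, 0.09 and 0.10). Crtap, a partner of prolyl 3-hydroxylase, rose in Ndst1/2-/- cells (1.16 ± 0.08 SE), as did Mia3, the cargo receptor of collagen export (0.98 ± 0.11). The prolyl 4-hydroxylase gene P4ha2 (-1.09 ± 0.10, detected on 3 of 4 Ndst1/2-/- arrays) and the lysyl hydroxylase gene Plod2 (-1.01 ± 0.06) fell. Serpinh1, the collagen chaperone HSP47, was not called with chlorate (0.11) or SU5402 (0.08) and fell in Ndst1/2-/- cells (-0.26 ± 0.09). Mia3 rose with chlorate (0.48) and SU5402 (0.33), and Loxl1, a lysyl oxidase-like crosslinking enzyme, fell (-0.44 and -0.34).

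Of 20 tested receptors and adaptors that link cells to the basement membrane, 3 rose and 2 fell with chlorate, 5 rose and 2 fell with SU5402, and 14 rose and 2 fell in Ndst1/2-/- cells (medians 0.05, 0.12 and 0.35). Integrin alpha 3, a laminin receptor chain, fell in all 3 (Itga3, -0.89, -0.53 and -1.43). Itga6, another laminin receptor alpha chain named here after its values were seen, was not called with chlorate (-0.02) or SU5402 (0.03). Its mean log2 level was 9.47 in Ndst1/2-/- cells against 8.57 in untreated cells. The integrin gene Itgb5 (1.37 ± 0.06 SE), the laminin alpha 5 receptor gene Bcam (1.15 ± 0.09) and Itga5 (1.04 ± 0.08) rose in Ndst1/2-/- cells, and Itgb1, the beta chain of most laminin receptors, was not called (adjusted p = 0.994). Of 15 proteases and inhibitors acting on basement membrane, 4 rose and 4 fell with chlorate, 3 rose and 2 fell with SU5402, and 5 rose and 8 fell in Ndst1/2-/- cells (medians 0.03, -0.02 and -0.33, the last -0.24 with undetected genes at their bound). There the inhibitor Timp1 rose (1.04 ± 0.06). The gelatinases Mmp2 (-0.92 ± 0.05) and Mmp9 (-0.78 ± 0.13, detected on 2 of 4 Ndst1/2-/- arrays) and the procollagen C-proteinase Bmp1 (-0.80 ± 0.08) fell. Inhibitors did not all rise. Timp2, named here after its values were seen, was detected on 0 of 4 Ndst1/2-/- arrays and was at least 1.58-fold lower (adjusted p = 2.94e-07). In mean log2 level, Timp3 stood at 6.08 against 6.41 in untreated cells, and Reck, another inhibitor, at 6.52 against 6.02.

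Markers of endoderm, the lineage best known for these matrix genes, were mixed. Of 13 tested, 4 rose and 2 fell with chlorate, 3 rose and 2 fell with SU5402, and 2 rose and 5 fell in Ndst1/2-/- cells (medians -0.07, -0.08 and -0.04, or -0.01, -0.08 and 0 with undetected genes at their bound). The endoderm factor Gata6 was detected on 0 of 4 Ndst1/2-/- arrays and was at least 1.78-fold lower there than in untreated cells (mean log2 level 4.62 against 5.95, adjusted p = 3.69e-07). Foxq1, detected on 0 of 4 arrays there, was at least 1.45-fold lower (4.28 against 5.65, adjusted p = 3.3e-09). Amn fell (-1.70 ± 0.13 SE, detected on 2 of 4 Ndst1/2-/- arrays) and Apoe rose (1.43 ± 0.06). A bound sets the brighter group against the lowest detected signal of each dim array. Dab2, an endocytic adaptor of endoderm, rose with chlorate (0.60) and SU5402 (0.48) and fell in Ndst1/2-/- cells (-1.23).

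Over the 12 marker genes of primitive, parietal and visceral endoderm on the array, the summed intensity was 668 to 694 in untreated cultures, 791 to 867 with chlorate, 748 to 815 with SU5402 and 324 to 375 in Ndst1/2-/- cells. Of these 12 genes 5 were detected on no untreated array and 8 on no Ndst1/2-/- array, and Sox17, Foxa2, Afp, Ttr and Thbd were detected on no array of any group. Over these 12 genes the sum was higher with both inhibitors, as were 8 and 7 member probes. It was lower in Ndst1/2-/- cells, in which Lamc1, Nid1 and Col4a1 were highest. Single markers did not all follow it. The sum depends on the genes chosen, and it leaves out part of the endoderm list counted above. Of the genes left out, Apoe stood at a mean log2 level of 9.46 in Ndst1/2-/- cells against 8.03 in untreated cells. Foxq1, also left out, went the other way (4.28 against 5.65). The whole list was not summed. The sum of the 12 counts every probe of a gene, and its rise with the inhibitors came from Dab2, the brightest of the 12. Dab2 probe ILMN_1243329 had a mean log2 level of 8.02 in untreated cells, 8.61 with chlorate and 8.50 with SU5402. At Dab2 probe ILMN_3091641 the levels were 7.13, 7.70 and 7.55. Gata6 fell with both inhibitors (-0.37 and -0.38, adjusted p = 0.0237 and 0.0272), and Amn was not called (-0.28 and -0.33, adjusted p = 0.144 and 0.097). Sox7, an endoderm transcription factor named here after its values were seen, was not called with either inhibitor (-0.25 in both, adjusted p = 0.0638 and 0.0728) and rose in Ndst1/2-/- cells (0.74 ± 0.09 SE, adjusted p = 1.65e-05). The part of endoderm cells in the inhibitor changes was not tested.

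Fibroblast markers, examined because feeder cells make the same matrix, summed to 141 to 157 in untreated cultures, 107 to 122 with chlorate, 101 to 132 with SU5402 and 64.8 to 72.3 in Ndst1/2-/- cells. The fall of this sum came mainly from 1 gene, Thy1 (mean log2 level 6.50, 5.91, 5.76 and 4.57 in that order). Other genes of the fibroblast list are not in the sum. Of those, Acta2 (10.62, 10.80, 10.78 and 8.86) and Col5a1 (7.72, 7.92, 7.79 and 7.45) did not fall with the inhibitors, and Twist1 (6.35, 6.06, 6.13 and 6.02) was lower. The whole list was not summed. Of the 9 genes in the sum 7 were detected on no array of any wild-type group, among them Col1a2, Col3a1 and Dcn, and 9 on no Ndst1/2-/- array. Of 5 tested fibroblast-list genes 1 rose and 2 fell with chlorate, 0 rose and 1 fell with SU5402, and 0 rose and 5 fell in Ndst1/2-/- cells (medians 0.04, 0.07 and -0.49, the last -0.33 with undetected genes at their bound). Endothelial markers summed to 391 to 424, 515 to 588, 585 to 616 and 629 to 655 in the same order of groups. The order of this sum depends on the genes chosen, and it leaves out part of the endothelial list. Of the genes left out, Esam and Robo4 fell with chlorate (-2.19 and -2.22) and SU5402 (-1.86 and -1.78). Both also fell in Ndst1/2-/- cells. The whole endothelial list was not summed, so no likeness to a member is drawn from the sum. The endothelial genes Cdh5, Emcn and Tie1 were detected on no array, and the sum came mainly from Pecam1, which ES cells also express, and Tek. Its part in the matrix changes was not tested.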

How the data were processed

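Gene expression was measured on Illumina mouse bead arrays in 16 arrays of 12 cultures. The authors' deposited table holds a linear intensity per probe and array with a detection p-value, and a second deposited table holds processed intensity values floored at 20 (53.1% of them at the floor). BeadStudio made the values per the submitters' processing notes; its version and the processing behind the second table are not given in the sources used here. Probe symbols came from the platform annotation (23978 probes with 1 symbol, 1719 with none, 0 with several), and no genome build is given for the arrays.

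From the intensities, limma 3.58.1 in R 4.3.3 corrected background (neqc, normexp on detection p-values, offset 16), quantile-normalized, took log2 and averaged the duplicate arrays of culture 3. The offset understates folds of dim genes. Probes with a mean detection p-value below 0.01 in at least 3 of the 12 cultures were kept. One limma fit of the 4 groups (8 residual and 4.37 prior degrees of freedom) gave 6 comparisons and an F-test, with Benjamini-Hochberg adjustment over 13377 probes, called under 0.05. A probe undetected on every array of 1 group got only a bound on its fold, the brighter group's mean against the lowest detected signal of each dim array or the dim probe's own signal, whichever was higher. Data were simulated for the chlorate comparison over 13377 probes, with normal noise and 100 probes changed by each of 2 sizes. The fit recovered 84% of changes of 0.5 log2 units and 99% of changes of 1, with 5 false calls. In the measured data 28.4% of probes were called with chlorate, a far larger share, so these rates do not give the error of the real calls. Differences between probes were tested by exact permutation.

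Every member probe was named, then the 3 nearest genes for the 4 members with the widest range, and from each list up to 4 called genes with the largest change and up to 3 well-known uncalled ones. A gene with several probes was read from its brightest tested probe. The members, lists and alternatives were chosen with earlier results of these data known. The alternatives were other scaling, no background correction, no or a stricter filter, the processed values, array sets, the replicate block, fewer groups in the fit, 1 array of culture 3, and each culture left out. Duplicate arrays differed by a median of 0.0973 to 0.106 log2 units per probe and cultures 1 and 2 by 0.102 to 0.117; the number of arrays limits the precision.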

Additional observations from a re-analysis of the deposited data

How the results depend on the processing

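Of 1242 recomputed member values (54 values under 23 alternatives, 12 of which leave out a culture), 1203 kept their direction and side of the threshold, 25 lost a call and 14 gained one; 0 called values changed sign. With the dimmer array set alone (2 arrays a group) 5 probes were called with chlorate in place of 8 and 4 with SU5402 in place of 7, with fewer samples. Between SU5402 and chlorate 2 probes were called without background correction, 2 with the stricter filter, 1 with the processed values and 1 with the array set as a block, in place of 0; the cause was not tested. Leaving out each culture gave 7 to 8 called probes with chlorate, 6 to 7 with SU5402, 8 to 9 in Ndst1/2-/- cells, 0 to 1 between SU5402 and chlorate, 9 between Ndst1/2-/- and chlorate, 8 to 9 between Ndst1/2-/- and SU5402, and 9 by the F-test. With a replicate block the counts were 8, 7, 9, 0, 9, 8 and 9; same-numbered cultures correlated by -0.0094 to 0.19 over 18 pairs and differently numbered ones by -0.17 to 0.12 over 36, so the numbers were not taken as pairs. In the brighter array set alone Sparc probe ILMN_3136561 lost its SU5402 call (0.25, adjusted p = 0.0834), and Col4a2 its calls between Ndst1/2-/- cells and chlorate (0.21, adjusted p = 0.223) or SU5402 (0.27, adjusted p = 0.125).

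Median scaling moved the share of calls that were higher from 50.1% to 37.7% with chlorate and from 49.8% to 60% between Ndst1/2-/- cells and chlorate, over all tested probes. Of the list genes 1 reversed: Gata4 in Ndst1/2-/- cells was -0.04 (adjusted p = 0.838) and 0.33 (adjusted p = 0.0269) in the brighter array set alone. Called list genes ranged over the alternatives, against the reported count, for endoderm markers from 2 to 7 (6) with chlorate, 1 to 6 (5) with SU5402 and 2 to 9 (7) in Ndst1/2-/- cells, and for collagen folding genes from 3 to 5 (5), 0 to 4 (4) and 13 to 17 (16). For other basement membrane components they were 2 to 4 (4), 1 to 3 (3) and 6 to 8 (6), for receptors 3 to 7 (5), 2 to 10 (7) and 14 to 16 (16), for proteases 4 to 9 (8), 2 to 6 (5) and 9 to 14 (13), and for fibroblast markers 1 to 3 (3), 0 to 2 (1) and 3 to 5 (5). For ES cell markers they were 5 to 8 (8), 3 to 7 (7) and 7 to 8 (7). For the TGF-beta and SMAD list they were 4 to 7 (7), 4 to 6 (6) and 8 to 11 (10). For endothelial markers they were 4 to 5 (5), 4 (4) and 5 to 6 (6), and for the other laminin and collagen IV chains 0, 0 and 1 to 2 (1). With 3 cultures a group and the number of knockout lines or clones not stated, the comparisons carry no information on other lines or on protein.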

Other observations

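Genes listed for TGF-beta and SMAD signalling, a pathway that induces many matrix genes, differed between the inhibitor groups and the Ndst1/2-/- cells in their counts. The list mixes targets with pathway components such as Tgfb2 and Ltbp1. Of 11 tested genes 6 rose and 1 fell with chlorate, 5 rose and 1 fell with SU5402, and 3 rose and 7 fell in Ndst1/2-/- cells, by limma against untreated cells. The medians were 0.23, 0.13 and -0.95 (the last -0.71 with undetected genes at their bound), and the shares of all probes called are those given with the members. Lefty2, an antagonist of Nodal, stood at 0.39 and 0.54 with chlorate and SU5402 and at -2.04 ± 0.07 SE in Ndst1/2-/- cells, and Lefty1 at 0.52, 0.61 and -1.23 ± 0.06, all 6 called. Skil, a SMAD corepressor, fell in all 3 (-0.26, -0.26 and -1.31). Tgfbi, which is also a basement membrane component, went the other way in Ndst1/2-/- cells, as the values above show. There Ccn2 (mean log2 level 11.28 against 10.99 in untreated cells) and Id2 (8.65 against 8.41) were higher too. Whether the members follow this pathway was not tested.

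ES cell markers were mixed. Of 10 tested, 5 rose and 3 fell with chlorate, 5 rose and 2 fell with SU5402, and 4 rose and 3 fell in Ndst1/2-/- cells (medians 0.17, 0.15 and 0.12). Nanog rose in all 3 (0.92, 0.78 and 0.68) and Utf1 fell (-1.50, -1.10 and -0.94), while Pou5f1 was not called in any (-0.10, -0.15 and 0.08). Esrrb, a pluripotency factor that was among the genes nearest to Col4a1, rose by 0.41, 0.45 and 1.11. The summed intensity of the 6 defining ES cell markers was 22725 to 24191 in untreated cultures, 27044 to 27377 with chlorate, 25702 to 26576 with SU5402 and 29381 to 30981 in Ndst1/2-/- cells, so it was lowest where most member probes were lowest. Its part in the matrix changes was not tested.

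Of 6 tested endothelial genes 3 rose and 2 fell with chlorate, 2 rose and 2 fell with SU5402, and 4 rose and 2 fell in Ndst1/2-/- cells (medians 0.25, 0.21 and 0.52). Esam (-2.19, -1.86 and -2.23) and Robo4 (-2.22, -1.78 and -1.76) fell in each comparison, and Pecam1 rose (0.47, 0.60 and 0.66).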
